A study of Homo sapiens with 12 samples.

Results

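The histone lysine methyltransferases and demethylases described here are 48 human genes, 25 writers, 20 erasers and 3 of other or disputed activity, taken from the 57820 gene rows of the deposited count tables by their Ensembl identifiers. The list leaves out the subunits of Polycomb repressive complex PRC2, and each gene was placed in a class by its best known substrate. A gene entered the tests if it passed a filter on low counts, which kept 15750 genes in all and 46 of the 48. PRDM9, a meiotic H3K4 methyltransferase, had 0 counts in all 12 libraries, and RIOX1 had 0 in 11 of them and 9 counts in SMARCB1 dBRD9-A replicate 2. RIOX1 overlaps HEATR4 on the opposite strand in GENCODE 29.

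All libraries came from G401, a malignant rhabdoid tumour cell line labelled SMARCB1(-/-), that is, without SMARCB1, a shared subunit of canonical SWI/SNF (BAF) remodellers. In the control groups, doxycycline induced GFP, and in the other groups it induced SMARCB1. Both kinds of cells then received either the solvent DMSO or dBRD9-A, a small molecule that brings about degradation of BRD9, a subunit of non-canonical BAF, for 24 hours. The 4 groups, GFP with DMSO, GFP with dBRD9-A, SMARCB1 with DMSO and SMARCB1 with dBRD9-A, had 3 libraries each. All rest on 1 cell line in which the protein is induced from a doxycycline-controlled construct, and how long doxycycline was given is not stated in the labels. Nothing in the labels says that the 3 replicates of a group were separate cultures, so the p-values measure only the spread between these libraries, which may be technical.

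Lysines on histone tails carry up to a trimethyl mark, set by writers, mostly enzymes with a SET domain, and removed by erasers, which are either flavin-dependent amine oxidases (KDM1A and KDM1B) or oxygen- and iron-dependent enzymes with a Jumonji domain. Methylation of H3K4 marks promoters and enhancers, that of H3K36 and H3K79 marks transcribed gene bodies, and that of H3K9 and H4K20 is known from silent and compacted chromatin. H3K27 methylation is set by PRC2, whose antagonism with SWI/SNF is well known in rhabdoid tumours, and its erasers KDM6A and KDM6B are among the genes covered here.

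Libraries held 34.97 to 58.54 megacounts (a megacount being 1e+06 counts) assigned to genes, of which the 48 genes took 0.230% to 0.277%. Levels are given as counts per megacount (CPM) on library sizes scaled by TMM, and differences as log2 fold changes. SMARCB1 had 0 to 2 counts in each GFP library and 53033 to 110893 in each SMARCB1 library, which fits the labels. BRD9 mRNA was at 38.3 ± 1.2 CPM (SD, n = 3) in GFP cells with DMSO and 41.1 ± 0.849 with dBRD9-A, a treatment that acts on the protein. Of the rhabdoid markers, VIM, KRT8 and KRT18 had group means of 1267 to 2534 CPM and MUC1 of 0.118 to 0.249 CPM. Of the leukocyte and endothelial markers, PTPRC and CD3E had 0 counts in all libraries, CD14 had at most 3 counts, CDH5 had 0 in GFP libraries and 3 to 10 in SMARCB1 libraries, and VWF had 0 to 5 and 22 to 50.

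Levels were divided by the length of the union of exons of a gene's protein-coding transcripts, untranslated parts included, for an approximate comparison between genes. This length can exceed that of the transcripts present in these cells, and it comes from another annotation than the counts. The order below is thus approximate. KDM1A was highest in all 4 groups, far above the rest in GFP cells, while in SMARCB1 cells SMYD2 came near to it, at 72.7 ± 1.26 CPM per kilobase with DMSO against 84.1 ± 1.13 for KDM1A. KDM1A, also called LSD1, removes mono- and dimethyl groups from H3K4 as part of the CoREST complex. Its level in GFP cells with DMSO was 86.9 ± 2.13 CPM per kilobase, and in the other 3 groups it was 84.1 to 85.1. SUV39H2, which makes trimethyl H3K9, followed at 21.5 ± 0.50, with the H3K9 eraser KDM3B at 21.1 ± 0.422, and the ranges of these neighbours overlapped. After them came SMYD2 at 16.8 ± 0.253, the H3K9 and H3K36 eraser KDM4A at 15.9 ± 0.694 and the H4K20 monomethyltransferase KMT5A at 15.1 ± 0.359.

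The H3K4 writers of the COMPASS family were at the other end of the order. Per kilobase, KMT2A was at 3.31 ± 0.241 CPM, KMT2C at 2.29 ± 0.113, SETD1A at 1.45 ± 0.0896, KMT2D at 0.881 ± 0.0985, KMT2B at 0.620 ± 0.0517 and SETD1B at 0.611 ± 0.0279, in GFP cells with DMSO. The last 2 overlapped in range. Below them among the tested genes were only KDM4D, at 0.15 ± 0.0464, and the H3K27 eraser KDM6B, at 0.118 ± 0.0200, whose mean counts were under the limit of 50 set for giving a gene in full. The other H3K27 eraser, KDM6A, was at 3.84 ± 0.227.

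**Figure D1:**
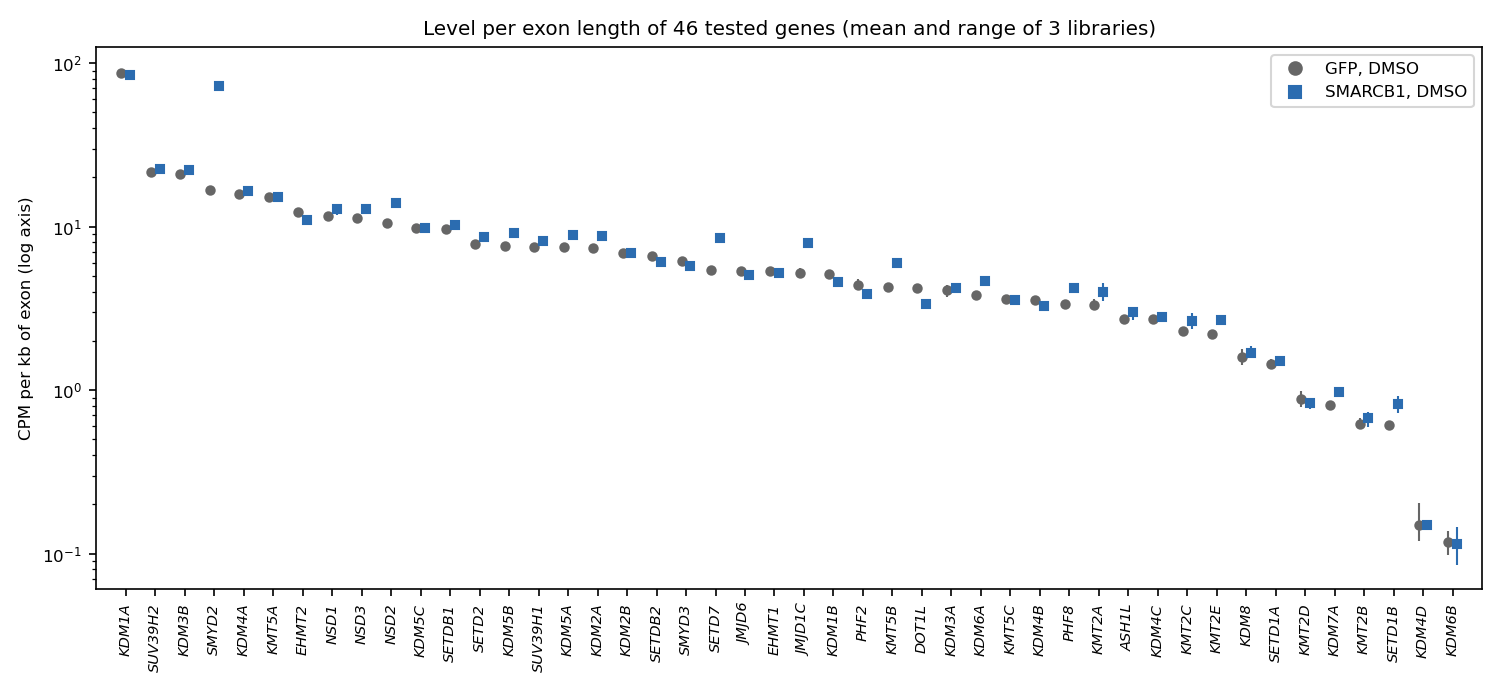
Level of each of the 46 tested genes per kilobase of exon in protein-coding transcripts (CPM per kb, log axis) in GFP and in SMARCB1 cells with DMSO, in the order of the GFP level. Points are means of 3 libraries and bars run from the lowest to the highest library. KDM1A is highest in both groups, and SMYD2 moves from 16.8 in GFP cells to 72.7 in SMARCB1 cells.

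With DMSO, SMARCB1 raised 20 and lowered 5 of the 46 tested genes relative to GFP (adjusted p under 0.05, edgeR's quasi-likelihood test over all genes). These 25 were 54.3% of those tested, against 65.0% of all 15750 genes (33.5% higher, 31.6% lower), so the share was under the background. The CPM ranges of the groups did not overlap for 24 of the 46, against 68.7% of all genes. Most differences were small. The median over the 46 genes was 0.07 on the log2 scale, and only SMYD2 passed an absolute log2 fold change of 1, which 14.6% of all genes did. Of the writers 12 rose and 3 fell among 24 tested (median log2 fold change 0.13), and of the erasers 7 rose and 2 fell among 20 (median 0.05), with KMT2E as the remaining gene that rose. In bulk RNA, a change in the share of cells that express a gene and a change in RNA per cell cannot be told apart.

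These directions are relative to the bulk of the RNA. With libraries scaled to the ERCC spike-in RNAs instead, the median of all genes moved to 0.17 in this comparison, the 20 genes that rose stayed higher, and 30 of the 46 were higher and 0 lower by the test, against 43.4% of all genes higher. Of the 5 that fell, SETDB2 (0.05) and KDM1B (0.02) then changed sign, and DOT1L (-0.15), EHMT2 (-0.01) and PHF2 (-0.01) stayed below 0 without passing the test. How the spike-ins were added, by cell number or by RNA mass, is not given in the sources used here.

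Among the H3K36 writers, all 6 tested rose with SMARCB1 in DMSO, where 33.5% of all genes tested were called higher, and the 6 were also higher with spike-in scaling. SMYD2, which methylates H3K36 and also non-histone proteins such as p53, changed most of all the 48 genes. It was at 28.2, 27.7 and 28.5 CPM in the GFP libraries with DMSO and at 123.9, 120.4 and 120.1 in the SMARCB1 libraries. Every SMARCB1 library was thus far above every GFP library, and libraries within a group lay close together. The log2 fold change was 2.11 ± 0.03 (SE), that is 4.31-fold (adjusted p = 1.85e-19), and per kilobase SMYD2 moved from rank 4 to rank 2 among the 48 genes.

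The promoter of SMYD2 is shown because this gene has the largest response. The sequence is the 250 bases before its start at chr1:214280909-214281158 (RefSeq, GRCh38.p14, plus strand), with matches to the searched motifs in capitals: 1 GGGCGGG, the GC box bound by SP and KLF factors, and 2 of CCGGAA, the core bound by ETS factors, one of them as its reverse complement.
SMYD2: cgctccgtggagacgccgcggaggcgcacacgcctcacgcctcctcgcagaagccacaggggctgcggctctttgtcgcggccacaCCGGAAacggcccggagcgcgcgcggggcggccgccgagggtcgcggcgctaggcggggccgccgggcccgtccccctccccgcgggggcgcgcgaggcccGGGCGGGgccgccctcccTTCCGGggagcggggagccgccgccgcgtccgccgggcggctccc
The window was 83.2% G and C. Motifs were searched on both strands and matches may overlap. GGGCGGG was found in 31.5% of 35116 human promoter windows of this length and CCGGAA in 14.5%. Of the 43 genes of the list that have a window, 31 and 10 had them. A gene was counted if any of its windows had the motif, so its count and the share of single windows are unlike measures. The CCAAT box and the hypoxia response, AP-1 and E2F motifs spelled out with KDM4B had no match here, which says only that those letters are not in the window.

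The other H3K36 writers changed less. NSD2, which makes dimethyl H3K36 and is known as an oncogene in myeloma, was at 189.7, 188.9 and 178.7 CPM in GFP cells and at 236.4, 248.5 and 254.4 in SMARCB1 cells, so the groups did not overlap. Its log2 fold change was 0.41 ± 0.03 (adjusted p = 7.10e-09). Its paralogs NSD3 and NSD1 rose by log2 fold changes of 0.20 ± 0.03 (adjusted p = 4.49e-05) and 0.13 ± 0.05 (adjusted p = 0.0211). SETD2, the enzyme that makes trimethyl H3K36 behind elongating RNA polymerase II, rose by 0.14 ± 0.04 (adjusted p = 0.00437), and ASH1L, a dimethyltransferase of the Trithorax group, by 0.14 ± 0.05 (adjusted p = 0.0286). NSD1 and ASH1L overlapped in CPM range between the groups. The calls on NSD1 and ASH1L were lost without GFP DMSO replicate 3 (adjusted p up to 0.178 and 0.179 over the left-out libraries) and without SMARCB1 DMSO replicate 3. ASH1L alone was also lost without GFP DMSO replicate 1 or SMARCB1 DMSO replicate 2.

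Of 8 tested H3K4 writers, 4 rose and 0 fell, against the 33.5% of all genes that were higher. SETD7, a monomethyltransferase, was at 73.5, 77.6 and 75.8 CPM in GFP cells and 115.9, 119.9 and 117.5 in SMARCB1 cells. The groups stood well apart, and the log2 fold change was 0.64 ± 0.03 (adjusted p = 2.22e-12). SETD1B, KMT2A and KMT2C, catalytic subunits of COMPASS-type complexes, rose by 0.44 ± 0.10, 0.28 ± 0.07 and 0.21 ± 0.07 on the log2 scale (adjusted p = 0.000961, 0.00288 and 0.0131). KMT2A overlapped between the groups, at 52.9, 59.7 and 52.6 CPM in GFP cells and 58.4, 66.5 and 74.8 in SMARCB1 cells. KMT2C was lost without GFP DMSO replicate 3 or SMARCB1 DMSO replicate 3 (adjusted p up to 0.138). Their paralogs KMT2B (0.13 ± 0.10), SETD1A (0.06 ± 0.07) and KMT2D (-0.07 ± 0.08) and the enzyme SMYD3 (-0.12 ± 0.05, adjusted p = 0.0574) did not pass. KMT2B and SETD1A were called higher with spike-in scaling.

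Writers of the silencing marks and of H3K79 were split in direction. EHMT2, the H3K9 mono- and dimethyltransferase G9a, was at 51.0, 53.3 and 51.5 CPM in GFP cells and at 45.6, 45.2 and 46.6 in SMARCB1 cells, lower in every library. Its log2 fold change was -0.18 ± 0.04 (adjusted p = 0.000335), while its partner EHMT1 differed by -0.04 ± 0.05 and did not pass. SETDB2 fell by 0.12 on the log2 scale (adjusted p = 0.0120) and SUV39H1 rose by 0.13 ± 0.05 (adjusted p = 0.0333). SETDB2 was lost without GFP DMSO replicate 3 or SMARCB1 DMSO replicate 3, and SUV39H1 in 4 of 12 leave-one-out fits and with DESeq2. SETDB1 (0.07 ± 0.03) and SUV39H2 (0.06 ± 0.03) did not pass.

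DOT1L, the sole H3K79 methyltransferase known, was at 30.6, 33.0 and 30.2 CPM in GFP cells and at 24.6, 24.3 and 25.9 in SMARCB1 cells. All 3 SMARCB1 libraries were below all GFP libraries, and the log2 fold change of -0.32 ± 0.07 (adjusted p = 0.000780) was the lowest of the 46. DOT1L overlaps PLEKHJ1 and AP3D1 on the opposite strand in GENCODE 29, and whether the authors' counting used strand is not given in the sources used here. Among the H4K20 writers, KMT5B, which makes dimethyl H4K20, was at 32.3, 31.6 and 31.8 CPM in GFP cells and 46.4, 43.8 and 44.2 in SMARCB1 cells. Again the groups did not overlap, with a log2 fold change of 0.49 ± 0.04 (adjusted p = 4.08e-09). KMT5A, which makes the monomethyl form that KMT5B uses, differed by 0.01 ± 0.04, and KMT5C by -0.01 ± 0.07.

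**Figure D2:**
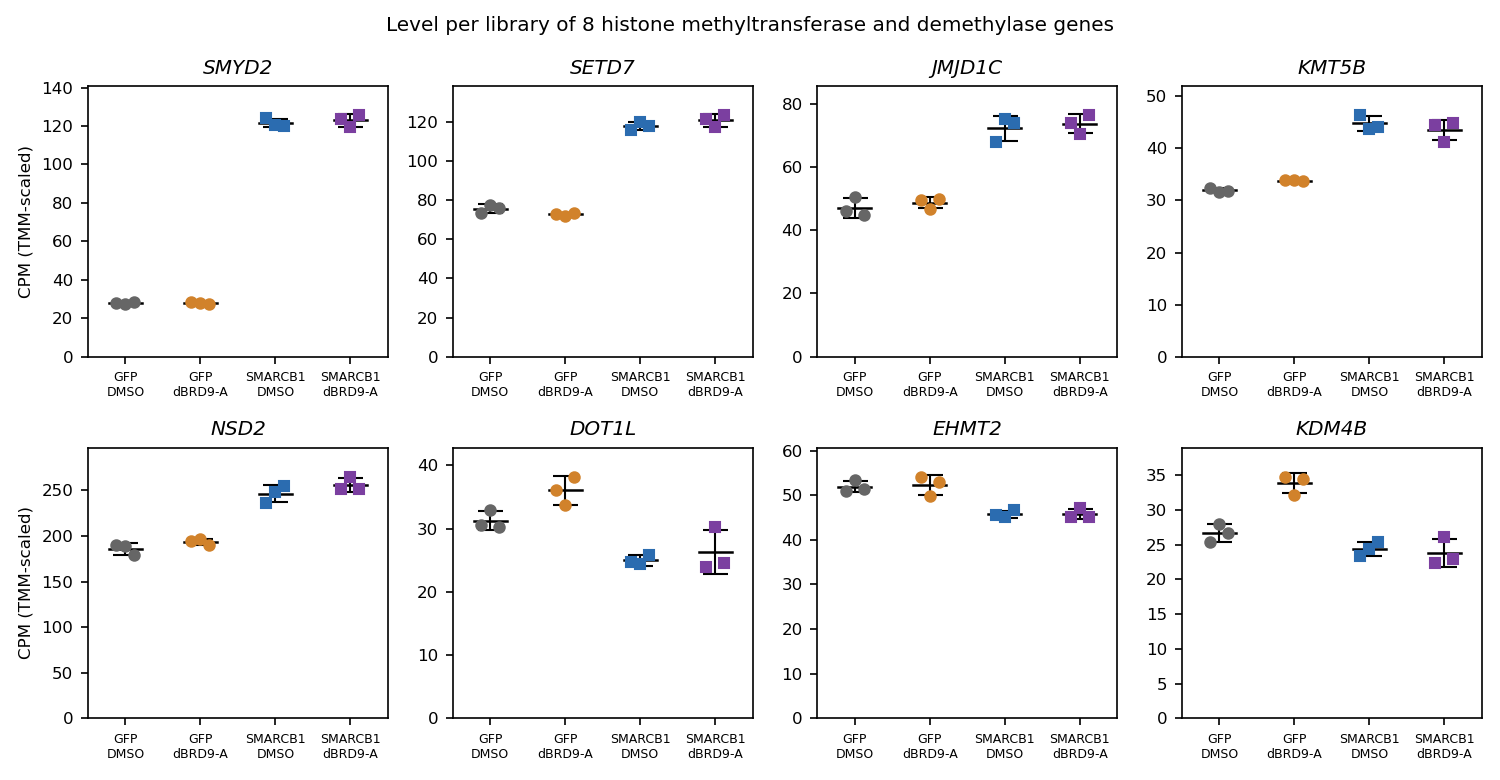
CPM in each of the 12 libraries (points) with the group mean (bar) and SD (error bars), in GFP and SMARCB1 cells with DMSO or dBRD9-A. Shown are SMYD2, SETD7, JMJD1C, KMT5B, NSD2, DOT1L, EHMT2 and KDM4B. PHF2, KDM1B, KDM3A and KDM5B, also given by library in the text, are not shown. SMYD2, SETD7, JMJD1C, KMT5B and NSD2 are higher in every SMARCB1 library than in every GFP library, and KDM4B is highest in the 3 GFP libraries with dBRD9-A.

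Among the genes classed as erasers, the largest response was in the H3K9 class. JMJD1C, a Jumonji protein of the KDM3 family, was at 45.97, 50.5 and 44.7 CPM in GFP cells and 67.8, 75.1 and 73.7 in SMARCB1 cells. The SMARCB1 libraries were all higher, by a log2 fold change of 0.62 ± 0.05 (adjusted p = 3.21e-09). PHF8 and KDM7A, which read trimethyl H3K4 through a PHD finger and remove H3K9 dimethylation, rose by 0.31 ± 0.05 and 0.27 ± 0.08 on the log2 scale (adjusted p = 9.53e-06 and 0.00570). PHF2, the third of that PHD family, was lower: 23.8, 26.7 and 23.2 CPM in GFP cells and 21.4, 20.9 and 22.6 in SMARCB1 cells, with a log2 fold change of -0.17 ± 0.06 (adjusted p = 0.0105). Its groups did not overlap, but the gap was narrow and the call was lost without GFP DMSO replicate 2 (adjusted p = 0.0696). KDM3A (0.04 ± 0.06) and KDM3B (0.08 ± 0.03) did not pass, although KDM3B was called with RLE factors (adjusted p = 0.0497).

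Of the 5 erasers of H3K4, 2 rose and 1 fell, where 33.5% of all genes tested were higher and 31.6% lower, so the counts were near the background. The trimethyl H3K4 eraser KDM5B and its paralog KDM5A, found as a binding partner of the retinoblastoma protein, rose by 0.28 ± 0.03 and 0.26 ± 0.04 on the log2 scale (adjusted p = 1.66e-07 and 1.87e-05), and KDM5C differed by -0.01 ± 0.04. KDM1B was at 24.0, 24.3 and 22.3 CPM in GFP cells and 19.6, 21.6 and 22.2 in SMARCB1 cells. Its highest SMARCB1 library lay just under its lowest GFP library, and the log2 fold change was -0.15 ± 0.05 (adjusted p = 0.0162). That call was lost without GFP DMSO replicate 1 or 2 or SMARCB1 DMSO replicate 1 (adjusted p up to 0.0932). KDM1A, the gene with the highest level per kilobase, differed by -0.05 ± 0.03 and did not pass.

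Of the genes classed as erasers with H3K36 as a substrate, KDM2A, which binds unmethylated CpG islands, rose by 0.24 ± 0.04 (adjusted p = 1.49e-05). Its paralog KDM2B differed by -0.00 ± 0.03 and KDM8 by 0.07 ± 0.10. The 4 KDM4 genes were classed together as erasers of H3K9 and H3K36, although not every one of them acts on both. None of the 4 passed edgeR's test in this comparison, where 65.0% of all genes did. Only 1 of them, KDM4B, was under an unadjusted p of 0.05, as were 10645 of all 15750 genes, and DESeq2 called none of them either. KDM4B (-0.12 ± 0.06, adjusted p = 0.0705) was called lower without the filter on low counts (adjusted p = 0.0239) and when only the DMSO groups were fitted (adjusted p = 0.0373). KDM6A, the H3K27 eraser that is part of the KMT2C and KMT2D complexes, rose by 0.28 ± 0.05 (adjusted p = 9.92e-05). KDM6B, its paralog, was under 1 CPM in all GFP and SMARCB1 libraries with DMSO (-0.02 ± 0.22), too low for its direction to be read. KMT2E, a SET-domain protein without clear methyltransferase activity, rose by 0.30 ± 0.06 (adjusted p = 0.000582), and JMJD6, a Jumonji lysyl hydroxylase, differed by -0.09 ± 0.05.

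**Figure D3:**
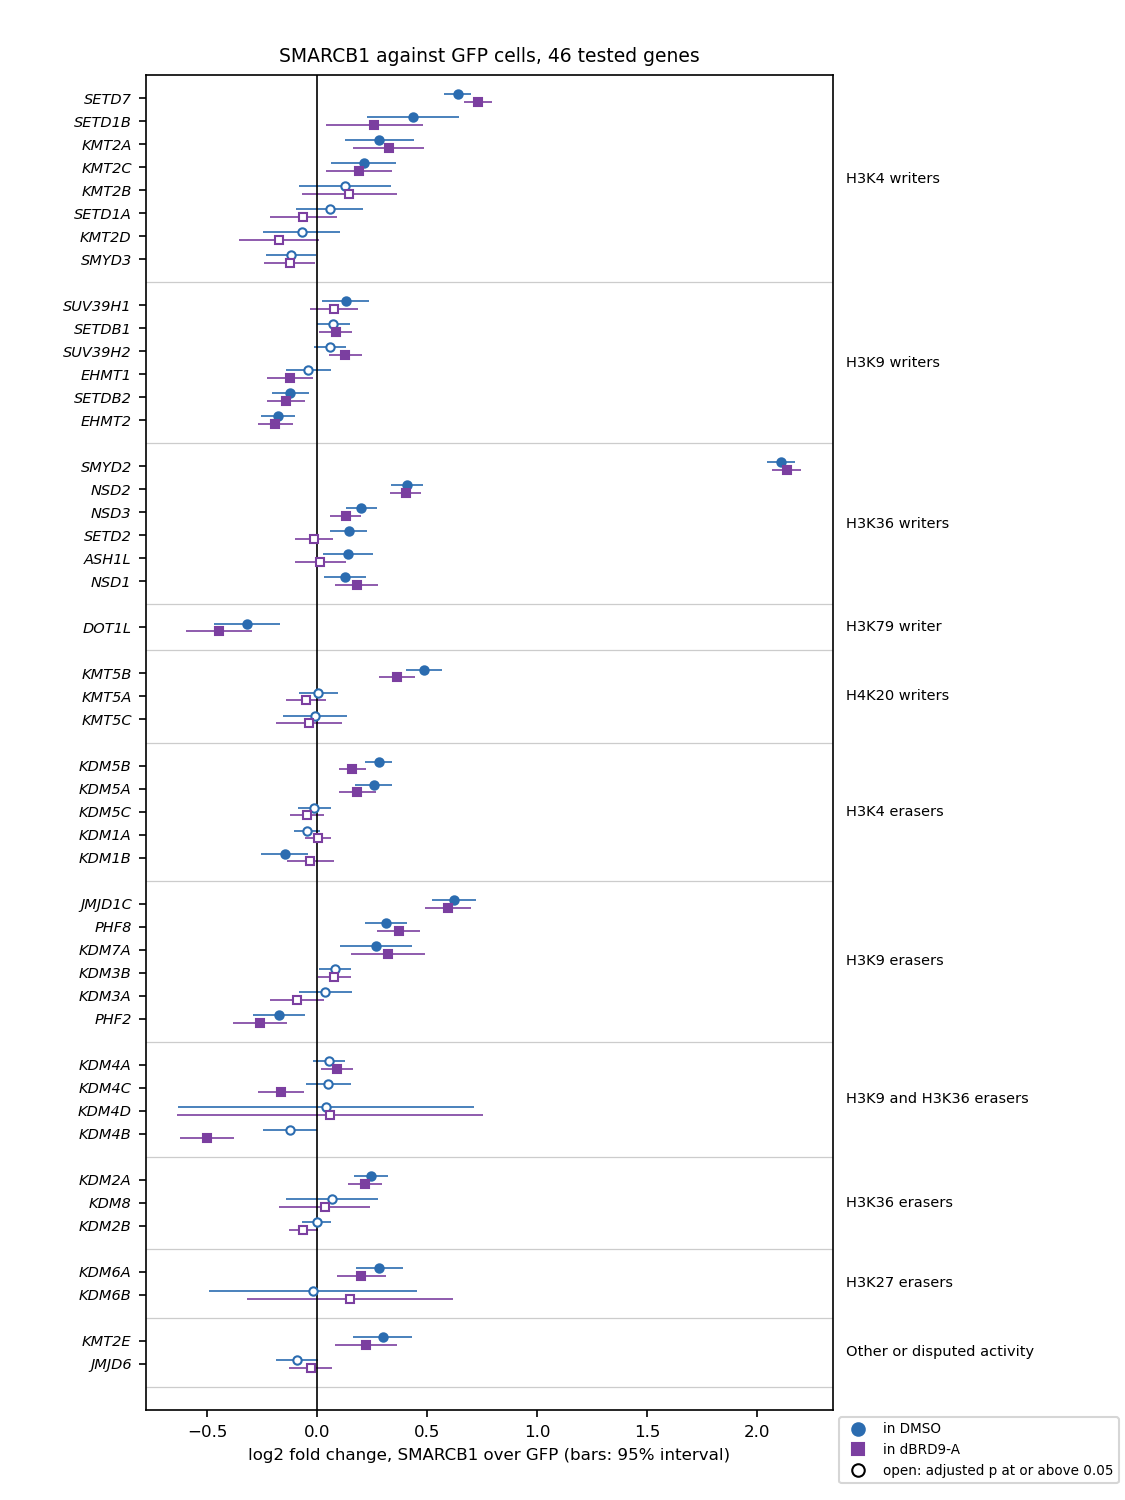
Log2 fold change of SMARCB1 over GFP for the 46 tested genes by class, with DMSO and with dBRD9-A. Bars are 95% intervals, and open symbols did not pass an adjusted p of 0.05. SMYD2 lies at 2.11 and 2.13, and the 6 H3K36 writers are all higher in DMSO. With spike-in scaling 14 of the 20 genes higher with dBRD9-A change sign, NSD1 and NSD3 among them.

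The comparison of SMARCB1 with GFP was repeated in the libraries with dBRD9-A, which share none with the DMSO libraries. Here 20 genes rose and 7 fell, 58.7% of the 46 against 63.3% of all genes (33.0% higher, 30.4% lower), and the CPM ranges did not overlap for 30 of the 46, against 66.2% of all genes. The calls in both comparisons were 21, all in the same direction (17 higher, 4 lower), which is 84.0% of the 25 genes and 77.8% of the 27. Over all genes tested, the shared calls were 85.2% and 87.5%. Spike-in scaling mattered more here, since the median of all genes moved to -0.32. With it, 14 of the 20 genes that rose changed sign, 3 kept a positive sign without passing the test, and SMYD2 (1.81), SETD7 (0.40) and JMJD1C (0.27) stayed higher and called, 3 genes against 13.5% of all genes. The test then called 28 of the 46 lower, against 57.4% of all genes.

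The largest differences were close to those with DMSO. SMYD2 was at 28.4, 27.8 and 27.7 CPM in the GFP libraries and 123.7, 119.4 and 125.7 in the SMARCB1 libraries (log2 fold change 2.13 ± 0.03, adjusted p = 2.51e-19). SETD7 was at 72.7, 71.9 and 73.4 CPM against 121.5, 117.2 and 123.4 (0.73 ± 0.03, adjusted p = 4.48e-13). JMJD1C was at 49.6, 46.7 and 49.7 CPM against 73.97, 70.5 and 76.4 (0.60 ± 0.05, adjusted p = 7.78e-09). For these 3 genes every SMARCB1 library was above every GFP library. NSD2, at 194.5, 196.3 and 190.2 CPM against 251.1, 265.2 and 251.5, was likewise separated (0.40 ± 0.03, adjusted p = 1.00e-08), and KMT5B rose by 0.36 ± 0.04 (adjusted p = 2.85e-07). NSD2 and KMT5B were at 0.08 and 0.04 with spike-in scaling.

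The genes lower with SMARCB1 under dBRD9-A were led by KDM4B, at -0.50 ± 0.06 (adjusted p = 7.25e-07), whose values by library stand with the dBRD9-A comparison. DOT1L was at 36.04, 33.8 and 38.2 CPM in GFP cells and 23.9, 30.3 and 24.6 in SMARCB1 cells, with replicate 2 of the SMARCB1 cells above the other two and still under all GFP libraries. Its log2 fold change was -0.45 ± 0.07 (adjusted p = 2.98e-05). PHF2 was at 24.3, 23.3 and 24.2 CPM against 20.1, 21.0 and 18.8 (-0.26 ± 0.06, adjusted p = 0.000709). EHMT2 was at 54.2, 49.8 and 52.9 against 45.1, 47.2 and 45.1 (-0.19 ± 0.04, adjusted p = 0.000243). SETDB2, EHMT1 and KDM4C also fell, by 0.14, 0.12 and 0.16, and these 7 genes were lower with spike-in scaling too. EHMT1 overlapped between the groups, at 60.4, 60.4 and 61.1 CPM against 52.0, 61.2 and 53.4, and its call (adjusted p = 0.0360) was lost in 5 of 12 leave-one-out fits (adjusted p up to 0.180). The call on SETDB1 (0.08 ± 0.04, adjusted p = 0.0495) was lost with RLE factors, with DESeq2, without the filter, with the replicate block, when only these groups were fitted and in 10 of 12 leave-one-out fits.

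By residue, the H3K36 writers gave 4 higher and 0 lower of 6 with dBRD9-A, as SETD2 (-0.02 ± 0.04) and ASH1L (0.01 ± 0.05) did not pass, and with spike-in scaling 1 was higher and 3 lower. The H3K9 writers gave 2 higher and 3 lower of 6 (0 and 6 with spike-in scaling), and the H3K4 writers 4 and 0 of 8 (1 and 3). The KDM4 genes gave 1 higher and 2 lower of 4 (0 and 3). Over all genes 33.0% were higher and 30.4% lower, and 13.5% and 57.4% with spike-in scaling. SETD1B, 1 of the 4 H3K4 writers, was lost with DESeq2 (adjusted p = 0.0919), when only these groups were fitted (adjusted p = 0.0524) and in 4 of 12 leave-one-out fits (adjusted p up to 0.189). KMT2C was lost in 4 of the 12 as well. KDM4A (0.09 ± 0.03, adjusted p = 0.0333) was lost with DESeq2 (adjusted p = 0.0710), without the filter and in 4 of 12 leave-one-out fits (adjusted p up to 0.168), and it was at -0.24 with spike-in scaling. The difference between the SMARCB1 effects with and without dBRD9-A is the interaction, which KDM4B alone passed among the 46 genes.

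In GFP cells, dBRD9-A raised 3 of the 46 genes and lowered 0, all erasers: KDM4B, KDM3A and KDM5B. That is 6.52% against 15.9% of all genes tested (7.43% higher). Of the 46, 12 had an unadjusted p under 0.05, as did 4398 of all 15750 genes. Other settings added both writers and erasers to these calls. The writer DOT1L was called higher with RLE factors, DESeq2, no filter or only the GFP groups in the fit. KMT2A and NSD1, also writers, were called lower with either of the last 2. With only the GFP groups, the erasers KDM5A (0.11, adjusted p = 0.0304) and KDM4C (0.14, adjusted p = 0.0308) were called higher. With spike-in scaling the median of all genes moved to 0.36 and 43 of the 46 genes were called higher, the 3 among them, against 70.4% of all genes.

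KDM4B removes trimethyl and dimethyl groups from H3K9 and is known as a target of hypoxia signalling and of the oestrogen receptor. In GFP cells it was at 25.3, 27.9 and 26.7 CPM with DMSO and at 34.8, 32.2 and 34.5 with dBRD9-A. In SMARCB1 cells it was at 23.3, 24.3 and 25.4 CPM with DMSO and at 22.4, 26.2 and 23.0 with dBRD9-A. The 3 GFP libraries with dBRD9-A were above all 9 others, and the treated SMARCB1 libraries overlapped their DMSO controls. The log2 fold change in GFP cells was 0.35 ± 0.06 (95% interval 0.23 to 0.47, adjusted p = 0.000378), and it was called in all 12 leave-one-out fits.

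The promoter of KDM4B is printed because it is the 1 gene of the list whose response to dBRD9-A differed between the cells. The 250 bases before its start lie at chr19:4968863-4969112 (RefSeq, GRCh38.p14, plus strand). Capitals mark 4 matches to CCAAT, the box bound by NF-Y. They also mark 2 to GGGCGGG, one of which, as its reverse complement, overlaps a CCAAT. The first capitals are the palindrome CACGTG. It holds ACGTG, the core of the hypoxia response element, on both strands, so the 2 matches share the same stretch and are not separate sites. Whether any of these motifs is bound or has a part in the response of KDM4B was not tested.
KDM4B: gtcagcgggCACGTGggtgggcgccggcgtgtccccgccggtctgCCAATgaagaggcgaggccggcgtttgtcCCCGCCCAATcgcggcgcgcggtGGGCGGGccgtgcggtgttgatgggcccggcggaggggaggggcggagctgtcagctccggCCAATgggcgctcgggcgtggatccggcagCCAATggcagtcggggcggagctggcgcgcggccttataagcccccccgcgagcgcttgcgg
The window was 75.6% G and C. CCAAT was found in 32.0% and ACGTG in 18.5% of the 35116 promoter windows. Of the 43 genes of the list that have a window, 17 and 11 had them in any of their windows. The ETS motif, the AP-1 motif TGANTCA (6.57% of all windows) and the E2F motif GGCGGGAA (2.72%) had no match in this window.

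The other 2 calls were weaker. KDM3A, an H3K9 dimethyl eraser also known to respond to hypoxia, was at 22.3, 18.8 and 21.0 CPM with DMSO and at 23.1, 23.6 and 24.7 with dBRD9-A. The groups did not overlap, though the lowest treated library was close to the highest control, and 15 of the 46 did not overlap in this comparison, against 34.0% of all genes. Its log2 fold change of 0.19 ± 0.06 (adjusted p = 0.0310) was lost in 4 of 12 leave-one-out fits, those without GFP DMSO replicate 2 or 3 or GFP dBRD9-A replicate 2 or 3 (adjusted p up to 0.129). KDM5B was at 104.8, 105.5 and 107.5 CPM with DMSO and 108.8, 114.5 and 116.3 with dBRD9-A, again without overlap. The log2 fold change was 0.10 ± 0.03 (adjusted p = 0.0362), and it was lost without any 1 of the GFP DMSO libraries or GFP dBRD9-A replicate 2 or 3, without the filter on low counts and with the replicate block.

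Among the genes that did not pass, DOT1L (0.21 ± 0.07, adjusted p = 0.0545; 0.0496 with RLE factors, 0.0416 with DESeq2, 0.00123 without the filter and 0.00459 with only the GFP groups), KDM4C (0.14 ± 0.05, adjusted p = 0.0632), SUV39H1 (0.14 ± 0.05, adjusted p = 0.0682) and SUV39H2 (-0.10 ± 0.04, adjusted p = 0.0760) were nearest the threshold. KMT2A, the lowest of the 46, was at 52.9, 59.7 and 52.6 CPM with DMSO and 49.996, 43.8 and 49.5 with dBRD9-A (-0.20 ± 0.08, adjusted p = 0.0889; 1.16e-05 without the filter and 0.0138 with only the GFP groups). SMYD2, the gene with the largest response to SMARCB1, differed by -0.01 ± 0.03.

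In SMARCB1 cells, dBRD9-A changed 0 of the 46 genes by edgeR's test, against 1.93% of all genes. The DESeq2 Wald test also called 0. In edgeR, 4 of the 46 had an unadjusted p under 0.05, as did 2006 of all 15750 genes. The median of all genes moved to -0.14 with spike-in scaling, under which KMT2A, SETD2 and NSD3 were called lower, as were 5.3% of all genes. With TMM factors, the spread allowed bounds on the size of a change relative to the bulk of the RNA. For each of the 44 genes with a mean of at least 50 counts, the 95% interval lay within 0.5 of 0 on the log2 scale, and for 41 within 0.3, the farthest bound being 0.42 for KDM8. In GFP cells the intervals of the same 44 genes lay within 0.5 of 0 and 38 within 0.3. These bounds do not carry over to spike-in scaling, under which the median of the 46 genes in GFP cells was 0.39 and KDM4B was at 0.71. KDM4D and KDM6B had too few counts for such bounds.

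**Figure D4:**
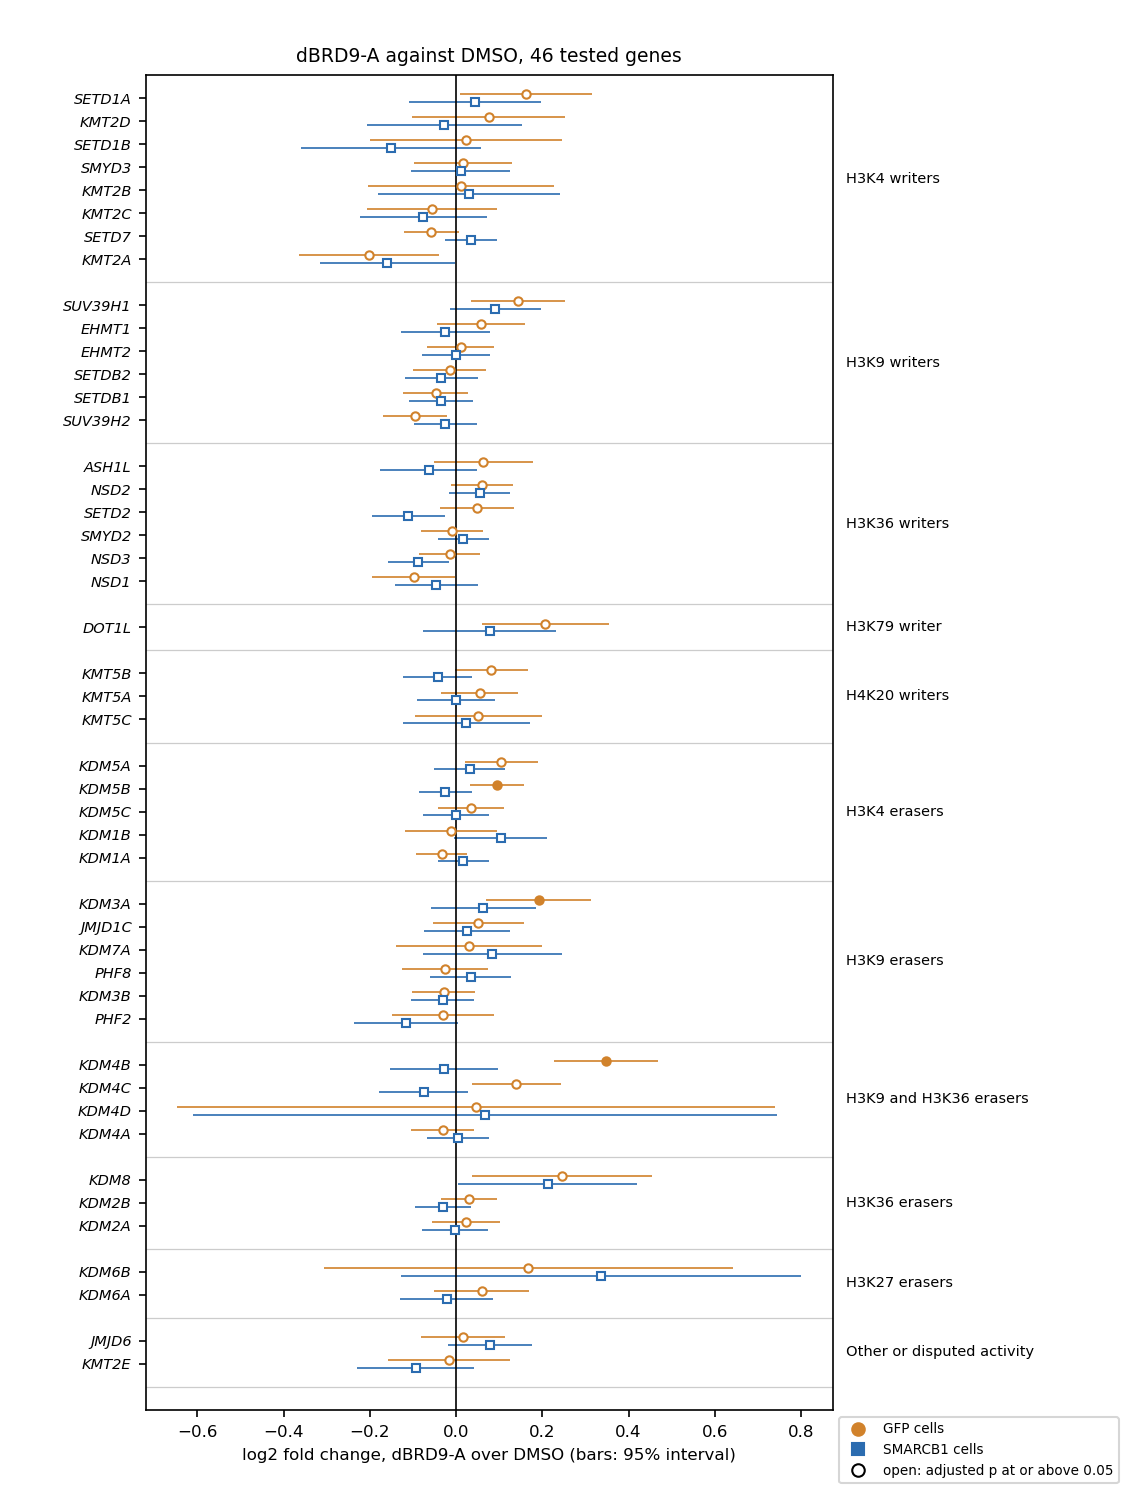
Log2 fold change of dBRD9-A over DMSO in GFP and in SMARCB1 cells for the 46 tested genes by class. Bars are 95% intervals, and filled symbols passed an adjusted p of 0.05. KDM4B (0.35), KDM3A (0.19) and KDM5B (0.10) are filled in GFP cells, and no gene is in SMARCB1 cells.

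The interaction, the response to dBRD9-A in SMARCB1 cells minus that in GFP cells, tests this difference itself. KDM4B was called and no other gene of the list, 2.17% of 46 against 3.80% of all genes. Under an unadjusted p of 0.05 were 6 of the 46 and 2506 of all 15750 genes. The KDM4B response was -0.03 in SMARCB1 cells (95% interval -0.15 to 0.10) and 0.35 in GFP cells, a difference of -0.38 ± 0.08 (adjusted p = 0.0134). Leaving out each of the 12 libraries gave -0.46 to -0.33, with adjusted p at most 0.0453. With spike-in scaling the median of all genes moved to -0.49 and KDM4B to -0.88, with 44 of the 46 genes called lower, against 71.1% of all genes.

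Of the KDM4 family, KDM4C had the same signs as KDM4B, at 0.14 in GFP cells and -0.08 in SMARCB1 cells. Its interaction was -0.22 ± 0.07 (adjusted p = 0.110), and it was called without SMARCB1 dBRD9-A replicate 3 (-0.27, adjusted p = 0.0384) and, with most other genes, under spike-in scaling (-0.72). KDM4A was at 0.04 ± 0.05 for the interaction. For KDM3A and KDM5B the interactions of -0.13 ± 0.08 and -0.12 ± 0.04 (adjusted p = 0.478 and 0.139) did not pass, so a difference between the cells was not shown for them. The 2 responses to dBRD9-A, which share no library, had the same sign for 26 of the 46 genes, 56.5% against 59.4% of all genes.

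The proteins that work with these enzymes were taken as a list of 42 partner genes, of which 39 were tested. With SMARCB1 in DMSO, 18 rose and 11 fell, 74.4% against the 65.0% of all genes. GFI1, a repressor that recruits KDM1A, had the highest fold change of the list, at 1.88 ± 0.21, but only 12 to 18 counts in each GFP library and 37 to 66 in each SMARCB1 library, under the mean of 50 set for giving a gene in full. Among partners past that limit, AFF1, a scaffold of the super elongation complex and a partner of DOT1L-binding proteins, went from 14.7 ± 1.11 to 39.0 ± 2.05 CPM (SD, n = 3; log2 fold change 1.41 ± 0.07, adjusted p = 2.73e-12). ATF7IP, which stabilises SETDB1, rose by 0.60 ± 0.04 (adjusted p = 1.74e-09), while SETDB1 itself did not pass. RCOR2, a CoREST protein that binds KDM1A, went from 22.5 ± 1.05 to 13.2 ± 0.362 CPM (-0.77 ± 0.05, adjusted p = 2.90e-10). WDR82, the subunit that brings SETD1A and SETD1B to RNA polymerase II, went from 376 ± 9.03 to 257 ± 3.13 CPM (-0.55 ± 0.03, adjusted p = 6.59e-12). AFF1, ATF7IP, RCOR2 and WDR82 kept their direction with spike-in scaling. Under it 25 of the 39 were higher and 4 lower, against 6831 and 2581 of all 15750 genes.

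By class of partner, of the COMPASS and MLL subunits 7 rose and 3 fell among 13, of the LSD1 and CoREST proteins 5 and 4 among 10, of the H3K9 silencing proteins 3 and 4 among 11, and of the DOT1L partners 3 and 0 among 5, where 33.5% of all genes were higher and 31.6% lower. With dBRD9-A, the SMARCB1 comparison gave 15 higher and 13 lower of 39, 71.8% against 63.3% of all genes. The log2 fold changes there were 1.34 for AFF1, 0.50 for ATF7IP, -0.48 for WDR82, -1.08 for RCOR2 and, at 48 to 58 counts in each SMARCB1 library, 1.44 for GFI1. These 5 kept their direction with spike-in scaling, which gave 3 higher and 25 lower of 39, against 13.5% and 57.4% of all genes.

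In GFP cells dBRD9-A raised 6 partner genes and lowered 1, 17.9% of 39 against 15.9% of all genes, 4 of them in the LSD1 and CoREST class of 10. With spike-in scaling all 39 were higher, against 70.4% of all genes. PHF21A, the subunit that reads unmethylated H3K4, rose by 0.33 ± 0.09 (adjusted p = 0.0220), MLLT10, a DOT1L cofactor, by 0.25 ± 0.05 (adjusted p = 0.00104) and RCOR2 by 0.24 ± 0.05 (adjusted p = 0.00173). WDR82 was the gene lower (-0.10 ± 0.03, adjusted p = 0.0190), and it was at 0.26 with spike-in scaling. In SMARCB1 cells edgeR and DESeq2 both called 0 partner genes, where edgeR called 1.93% of all genes. In edgeR, 3 of the 39 were under an unadjusted p of 0.05, as were 2006 of all 15750 genes. RCOR2 was the 1 partner gene called in the interaction (-0.31 ± 0.07, adjusted p = 0.0207), 2.56% of 39 against 3.80% of all genes.

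Several enzymes of the list follow the cell cycle in other cells, so a list of 21 proliferation genes is given beside them. With SMARCB1 in DMSO 11 of these rose and 2 fell (median log2 fold change 0.15), 61.9% against 65.0% of all genes. With dBRD9-A 12 rose and 2 fell (median 0.09), 66.7% against 63.3%, so both shares were near the background. With spike-in scaling the DMSO comparison gave 18 higher and 0 lower, against 43.4% of all genes higher. Under the same scaling, the dBRD9-A comparison gave 1 higher and 15 lower, against 13.5% and 57.4% of all genes. In GFP cells dBRD9-A raised 2 and lowered 1, 14.3% against 15.9% of all genes. In SMARCB1 cells edgeR called 0, against 1.93% of all genes, and DESeq2 called 1, TOP2A, lower. In edgeR, 1 of the 21 was under an unadjusted p of 0.05, as were 2006 of all 15750 genes. The part of proliferation in the differences of NSD2, SUV39H1, KDM5B and the other enzymes was not tested.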

How the data were processed

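RNA sequencing of 12 G401 libraries was analysed from 3 gene tables. The authors deposited expected counts per gene from RSEM. STAR, RSEM 1.3.1, DESeq2 and the build GRCh37 (hg19) are named in the submitters' processing notes. Their roles, the annotation and the use of strand are not given in the sources used here. Per the labels' protocols, an RNeasy Plus kit served for RNA extraction and a TruSeq Stranded mRNA kit for the libraries.

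Expected counts were rounded to whole numbers. Identifiers of 40 ERCC spike-ins, 0.963% to 1.30% of a library's counts, stayed out of library sizes and tests. Genes passing filterByExpr (minimum count 10) were tested in R 4.3.3 with edgeR 4.0.16 (quasi-likelihood, TMM factors 0.976 to 1.02, 1 coefficient per group over all 12 libraries, Benjamini-Hochberg over 15750 genes). All adjusted p-values are from this test unless another is named. Standard errors were derived from the F statistic. Alternatives were RLE factors, spike-in scaling, DESeq2 1.42.0, no filter, only the groups compared, a log2 fold limit of 1, a replicate block and leaving out each library. Same-numbered replicates of different groups did not deviate together (18 correlations of -0.06 to 0.06, 0 above 0.1), so they were not paired.

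Symbols were matched by Ensembl identifier for 51996 rows. The partner genes PAGR1 and MLLT6 and the marker PECAM1 were not matched, and GFI1B failed the filter. Another marker is not reported here. Exon lengths (the union of exons of protein-coding transcripts) came from GENCODE 29 and promoters from RefSeq. JMJD6, DOT1L, NSD3, SETD1B and RIOX1 had no promoter window. Libraries of 1 group differed by more than sampling noise in every pair. The chi-square per degree of freedom was highest in SMARCB1 cells with dBRD9-A, at 25.6 for replicates 2 and 3 and 10.8 for replicates 1 and 2. In the other groups it was 2.95 to 7.87. Values were given in full for up to 4 called genes per direction and comparison with a mean of at least 50 counts, and for up to 2 partner genes. The genes, lists and this rule were chosen with earlier results of these data known.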

Additional observations from a re-analysis of the deposited data

Results flagged for a closer look

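The response of KDM4B to dBRD9-A differed between the cells by the interaction term, at -0.38 on the log2 scale (SMARCB1 minus GFP cells, adjusted p = 0.0134). It was 0.35 in GFP cells, where the 3 treated libraries were above the 3 controls, and -0.03 in SMARCB1 cells, where they overlapped.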

How the results depend on the processing

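Among the 46 genes tested, SMARCB1 against GFP in DMSO gave 25 calls (21 to 27 leaving out 1 library), dBRD9-A in GFP cells 3 (2 to 5), dBRD9-A in SMARCB1 cells 0 (0 in every such fit), SMARCB1 against GFP with dBRD9-A 27 (22 to 28) and the interaction 1 (1 to 2). A log2 fold limit of 1 left 1, 0, 0, 1 and 0. The fit with the replicate block gave 25, 2, 0, 27 and 1, and the labels do not say that the numbers pair the libraries. For dBRD9-A in GFP cells the count was 43 with spike-in scaling, 5 without the filter on low counts and 8 (6 higher, 2 lower) when only those groups were fitted. For dBRD9-A in SMARCB1 cells it was 3 with spike-in scaling and 1 without the filter (KMT2A, -0.16), and for the interaction 44 with spike-in scaling. Apart from the scaling, which moves all genes together, the cause of these changes was not tested. Spike-in scaling changed the sign of SETDB2 (0.047) and KDM1B (0.020) for SMARCB1 in DMSO. With dBRD9-A it did so for KMT2A (-0.0082), KMT2C (-0.14), SETD1B (-0.073), SETDB1 (-0.24), SUV39H2 (-0.20), NSD1 (-0.15), NSD3 (-0.20), KDM5A (-0.15), KDM5B (-0.17), KDM7A (-0.010), KDM4A (-0.24), KDM2A (-0.11), KDM6A (-0.12) and KMT2E (-0.11). With 3 libraries a group, the median half-width of the intervals was about 0.1 on the log2 scale between groups and 0.141 for the interaction. Differences smaller than a gene's own half-width could not be resolved, and KDM4D and KDM6B were limited by depth.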
